A study of Mus musculus with 18 samples.

Results

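Nav1, Nav2 and Nav3 encode the neuron navigators, a family of large proteins that bind the growing (plus) ends of microtubules and couple them to the actin cytoskeleton at the cell edge. In neurons they are known for steering axons and for neurite outgrowth. Nav1 protein binds end-binding proteins at microtubule tips and the exchange factor Trio, and Nav2 was first described as a gene induced by retinoic acid. The 3 genes were taken by their names from a table of 55450 genes, and all 3 were among the 21161 genes that passed edgeR's filter on low counts. The family was chosen because Nav1 had the largest fall among predicted miR-29b targets with the Col1a1 vector, so the differences of the navigators between Col1a1-miR-29b and empty vector cells are given below as descriptions, without a test. That choice rests on the treated libraries of these plasmids, and for Nav1 each other comparison that holds one of those 2 groups, or that sets the 2 miR-29b plasmids against each other, is given as a description too.

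The cells were mouse embryonic fibroblasts (MEF), cultured connective tissue cells that make extracellular matrix, obtained from a cell bank. They were transfected with 1 of 3 plasmids: empty pcDNA3, Col1a1-miR-29b, in which a rat Col1a1 promoter drives EGFP and human miR-29b-1, or CMV-miR-29b, in which the strong viral CMV promoter takes its place. From 6 h after transfection each kind of cell was cultured for 24 h with or without TGF-β, the main signal that turns fibroblasts toward matrix production. Each of the 6 groups held 3 libraries, for 18 in all, and p-values measure the spread between these libraries. The study's methods describe repeated experiments for each group, while the labels do not say whether the libraries came from separate cultures. Transfection was transient, and both miR-29b plasmids also carry a red fluorescent marker under another promoter. The parts of these plasmids other than miR-29b and miR-29b itself cannot be told apart in a comparison with the empty plasmid.

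The total count per library ran from 65898017 to 80332633, with a median of 74155860. Of 9 fibroblast markers 7 passed the filter on low counts, with a summed level of 1700 to 4970 CPM (counts scaled by the library total), although Lum was at 3 counts or fewer in every library. The summed levels of epithelial, leukocyte and muscle markers ran from 0.0505 to 0.956, from 8.49 to 13.6 and from 13.5 to 21.4 CPM. Mir29b-1 is the entry of the table for this microRNA, and in poly(A) RNA its counts come from precursor transcripts and not from the mature form. It had 0 counts in the 6 empty vector libraries. Its counts were 0 to 1 in untreated and 2 to 6 in treated Col1a1-miR-29b libraries, and 110 to 309 in untreated and 203 to 293 in treated CMV-miR-29b libraries.

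MicroRNAs of the miR-29 family bind messenger RNAs through the seed, bases 2 to 8 from the 5′ end, which pairs with matching bases in the 3′ untranslated region (3′ UTR) and lowers the level or translation of the message. The mouse mature sequences of the family, from RefSeq on GRCm38.p6, share the same seed, shown in capitals. They are printed because the sites below are defined by this seed.
mmu-miR-29b-3p: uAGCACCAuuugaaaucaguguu
mmu-miR-29a-3p: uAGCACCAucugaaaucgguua
mmu-miR-29c-3p: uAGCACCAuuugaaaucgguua
miR-29b-3p comes from Mir29b-1 on chromosome 6 and from Mir29b-2 on chromosome 1.

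Each navigator gene held several matches to this seed in its longest annotated 3′ UTR (GENCODE annotation of GRCm38). The full match TGGTGCTA pairs with the seed and has an A opposite base 1 of the microRNA. It was found once in Nav1, once in Nav2 and once in Nav3. The 7-base match TGGTGCT without that A was found 3 times in Nav1, once in Nav2 and 2 times in Nav3, and Nav3 also had 1 match to GGTGCTA, which lacks the pair with base 8. The search covered the transcript strand, and a full match was not counted again as one of the shorter matches it contains. The sites of Nav1 and the full matches of Nav2 and Nav3 are shown 5′ to 3′ on the transcript strand, with the match in capitals.
Nav1, minus strand, chr1:135439438-135439467: gaagaggctgactgtccgaggaTGGTGCTg
Nav1, minus strand, chr1:135439230-135439259: tgagcctttcaccctctttttcTGGTGCTg
Nav1, minus strand, chr1:135438775-135438804: ttcggaaggttgagcctcctcaTGGTGCTA
Nav1, minus strand, chr1:135438215-135438244: tacctgctttctggtaactcgtTGGTGCTt
Nav2, plus strand, chr7:49607317-49607346: cacccaccctccatggaagaatTGGTGCTA
Nav3, minus strand, chr10:109682236-109682265: tgcgccttttaggagatatcatTGGTGCTA
Of 20921 genes with an annotated 3′ UTR, 13.2% held TGGTGCT, 2.9% held TGGTGCTA and 2.0% held TGGTGCT at least 2 times.

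These shares depend on the length of the 3′ UTR, and that of Nav1 is long, at 7104 bases. Among the 403 genes whose 3′ UTR was within 20% of that length, 46.2% held TGGTGCT, 10.7% TGGTGCTA and 14.6% at least 2 copies of TGGTGCT. The 3′ UTR of Nav2 has 3269 bases, and among 2075 genes of similar length the shares were 28.2%, 6.1% and 5.2%. That of Nav3 has 2861 bases, and among 2362 genes of similar length they were 25.2%, 6.3% and 3.8%. Isoforms differ in what they hold. A shorter protein-coding Nav1 transcript has a 3′ UTR of 2836 bases with 2 of the 7-base matches and no full match, and 1 protein-coding Nav2 transcript has an annotated 3′ UTR of 0 bases. Counts per gene do not tell these transcripts apart. A match is a description of the sequence and not a measured binding site.

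**Figure D1:**
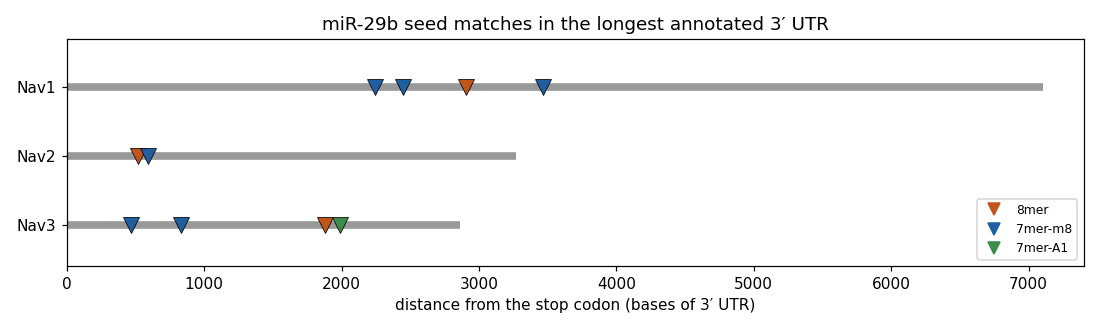
Positions of miR-29b seed matches (triangles) along the longest annotated 3′ UTR of Nav1, Nav2 and Nav3 (grey bars), in bases from the stop codon. The label 8mer marks TGGTGCTA, 7mer-m8 marks TGGTGCT without the final A and 7mer-A1 marks GGTGCTA. The 4 matches of Nav1 lie between bases 2239 and 3468 of 7104, while the 2 of Nav2 start at bases 518 and 591.

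The family was expressed at very different levels in these fibroblasts. Nav1 (ENSMUSG00000009418, chr1:135434580-135585705, minus strand) had 1627 to 6238 counts per library. Nav3 (ENSMUSG00000020181, chr10:109681259-110456204, minus strand) had 372 to 786 counts. Nav2 (ENSMUSG00000052512, chr7:48908716-49610090, plus strand) had 23 to 84 counts. On the FPKM scale, which divides by a gene length and was used for 16 libraries, the median level was 1.44 for Nav1, 0.480 for Nav3 and 0.0214 for Nav2. The values imply lengths of 19360, 17034 and 37348 bases for Nav1, Nav3 and Nav2. These are near the exon bases over all transcripts, 17303, 15207 and 32228. The transcripts with the longest 3′ UTR have 12767, 9962 and 10665 bases. Per transcript length the Nav2 level would thus be higher, and the ratio of Nav3 to Nav2 lower. Nav1 was above Nav3 in each of the 16 libraries, with an FPKM ratio of 2.19 to 6.98 and a median of 3.27. Nav3 was above Nav2 in each, with a ratio of 9.70 to 68.6 and a median of 22.6. Ranked by mean FPKM among the genes tested, Nav1 stood at percentile 46.4, Nav3 at 32.1 and Nav2 at 3.

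Several transcripts overlap the navigator genes. Gm2788, on the same strand, shares 295 exon bases with Nav2 and had 100 to 310 counts, more than Nav2 itself, so the low Nav2 counts are uncertain where reads could have gone to either gene. Gm38399, on the same strand as Nav1, shares 134 bases with it and had 0 to 310 counts, and the antisense Gm4793 shares 589 bases and had 0 to 41. Nav3 shared no exon base with another annotated gene. Whether the counting used strand is not given in the sources used here.

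Nav1 had more counts in the treated than in the untreated libraries of each plasmid, and it rose past the threshold in CMV-miR-29b cells, the plasmid whose libraries had no part in its choice. Normalized counts, which are counts scaled to a common library total with TMM factors, were 2020.6, 1714.4 and 1709.5 in the untreated empty vector libraries, and 3997.2, 3577.1 and 6381.7 in those with TGF-β, in the order of replicates c, d and e used for all values below. Each treated library stood above each untreated one, and treated replicate e stood far above the other two. The mean was 4652 ± 1513 with and 1815 ± 178.2 without TGF-β (SD, n = 3), a ratio of 2.56, or 1.36 on the log2 scale (standard error, SE, 0.16). Without treated replicate e this log2 difference was 1.05. The treated empty vector libraries enter the difference by which Nav1 was chosen, so no test is given. In a bulk sample a change in RNA per cell and a change in the share of cells that express the gene cannot be told apart.

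In cells with the CMV-miR-29b plasmid Nav1 normalized counts were 1700, 1654.5 and 1608.7 in untreated cells and 2805, 3163.8 and 2834.9 in treated cells. The groups did not overlap, and the spread within each was small. The mean rose from 1654 ± 45.6 to 2935 ± 199.1 (SD, n = 3), which is 1.77-fold, or 0.83 on the log2 scale (SE 0.16, edgeR adjusted p = 0.00551, from a quasi-likelihood test over all genes tested). With the Col1a1-miR-29b plasmid, where the last library of each group carries no letter that the labels give, the values were 1669.1, 1611.1 and 1977.1 in untreated cells and 2144.3, 2421.5 and 2127.3 in treated cells. The treated libraries again stood above the untreated ones, but closer, at means of 1752 ± 196.7 and 2231 ± 165.2 (SD, n = 3). The log2 difference was 0.35 (SE 0.16), again without a test. Averaged over the 3 plasmids it was 0.84 (SE 0.093).

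For TGF-β, the navigators that could be tested were counted beside all genes tested. Nav1 was tested in CMV-miR-29b cells only. In CMV-miR-29b cells 1 of the 3 passed the threshold, Nav1, where 4.95% of all genes tested passed, and DESeq2 called Nav1 and Nav2. In empty vector cells 0 of the other two, Nav2 and Nav3, passed with a background of 5.88%, and in Col1a1-miR-29b cells 0 of them with 4.32%. In both kinds of cell 0 of them had an unadjusted p under 0.05 and DESeq2 called 0. For the mean over plasmids 0 of them passed with a background of 13.7%. Nav2 had an unadjusted p under 0.05 there, as did 24.7% of all genes, and DESeq2 called Nav2. Of all genes tested, 11.3%, 11.8% and 11.1% had all treated libraries above all untreated ones in empty vector, Col1a1-miR-29b and CMV-miR-29b cells, as Nav1 did in each.

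The 2 transcripts that share exon bases with Nav1 had more counts in treated libraries too, except Gm38399 in Col1a1-miR-29b cells, where the groups overlapped. The antisense Gm4793 had 0 to 4 counts in untreated and 13 to 41 in treated libraries of the 3 plasmids. Gm38399 had 0 to 58 counts in untreated and 107 to 310 in treated empty vector libraries. It had 3 to 57 and 113 to 132 with CMV-miR-29b, and 9 to 79 and 0 to 103 with Col1a1-miR-29b. Nav1 itself had 1627 to 6238 counts. The part of reads from the shared bases in the Nav1 differences was not tested.

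As the navigators are named for neurons, 10 neuron markers were measured in the same libraries. Snap25, Nefl and Nefm were at 0 in every library. The summed level of the 10 was 32.8 to 40.6 CPM in untreated and 57.2 to 60.9 CPM in treated empty vector libraries. It was 32.2 to 37.8 and 53 to 55.4 CPM with Col1a1-miR-29b and 34.6 to 41 and 52.9 to 53.9 CPM with CMV-miR-29b. Nearly all of it was Tubb3, a beta-tubulin. Scaled with TMM factors as well, Tubb3 had 31 to 38.4 CPM in untreated and 55.3 to 60.7 CPM in treated empty vector libraries. The sums were scaled by library totals alone, so these values are not exact parts of them. The 3 endothelial markers, all tested, summed to 0.699 to 1.27 CPM in untreated and 2.13 to 2.61 CPM in treated empty vector libraries. Their sums were 0.934 to 1.68 and 2.03 to 2.45 CPM with Col1a1-miR-29b, and 1.39 to 1.64 and 2.4 to 3 CPM with CMV-miR-29b. The fibroblast markers, which include matrix genes, were also higher with TGF-β, at 2080 to 2390 and 4220 to 4970 CPM in empty vector libraries, 1700 to 1910 and 3330 to 3420 CPM with Col1a1-miR-29b, and 1860 to 2070 and 3480 to 3830 CPM with CMV-miR-29b. In empty vector cells most of this fibroblast sum was Col1a1 and Col1a2. Their mean normalized counts there went from 73790 to 176100 and from 45140 to 125800 with TGF-β. The other fibroblast markers were not summed apart. The untreated and treated sums of the neuron, endothelial and fibroblast lists did not overlap with any plasmid. The part of these markers in the Nav1 differences was not tested.

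Nav2, the retinoic acid induced member, was near the limit of measurement. In CMV-miR-29b cells its normalized counts were 21.8, 46.7 and 23.3 in the untreated group and 76.2, 93.5 and 59.5 under TGF-β treatment. All treated libraries were above the untreated ones, at means of 76.4 ± 17.0 and 30.6 ± 13.9 (SD, n = 3). The log2 fold change of 1.32 (SE 0.38) did not pass the threshold with edgeR (adjusted p = 0.0648), and it passed with DESeq2 (adjusted p = 0.0234). In empty vector cells Nav2 had 54.1, 63.3 and 25.8 without and 73.3, 46 and 57.3 with TGF-β. The groups overlapped, with a log2 fold change of 0.30 (SE 0.37, edgeR adjusted p = 0.794). In Col1a1-miR-29b cells it had 63.6, 59.7 and 53.9 without and 84.8, 84.2 and 42.4 with TGF-β, also overlapping, with a log2 fold change of 0.25 (SE 0.37, edgeR adjusted p = 0.87). The mean over plasmids was 0.62 (SE 0.22, edgeR adjusted p = 0.0728), and the exact two-sided permutation test within plasmids gave p = 0.0255. The overlapping Gm2788 had 188 to 245 counts in untreated and 114 to 207 in treated CMV-miR-29b libraries. Its counts were 155 to 248 and 100 to 212 with the empty vector, and 225 to 310 and 224 to 251 with Col1a1-miR-29b. The part of reads from the shared bases in the Nav2 differences was not tested.

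Nav3, the member that promotes persistent microtubule growth, showed no detectable response to TGF-β. Its normalized counts in empty vector cells were 636.6, 625.4 and 649.6 without and 705.6, 546.8 and 804.1 with TGF-β. The 3 untreated libraries lay within the range of the treated ones, and the log2 fold change was 0.11 (SE 0.16, edgeR adjusted p = 0.846). In CMV-miR-29b cells it was 681.9, 601.1 and 567.7 without and 496, 594.2 and 616.2 with TGF-β, a log2 fold change of −0.12 (SE 0.16, edgeR adjusted p = 0.837). In Col1a1-miR-29b cells it was 639.1, 543.9 and 538.6 without and 375.4, 567.1 and 521.2 with TGF-β, a log2 fold change of −0.23 (SE 0.16, edgeR adjusted p = 0.605). Treated and untreated libraries overlapped with each plasmid. The mean over plasmids was −0.08, with a 95% interval of −0.28 to 0.11 (edgeR adjusted p = 0.673). The exact two-sided permutation test of this mean gave p = 0.354.

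**Figure D2:**
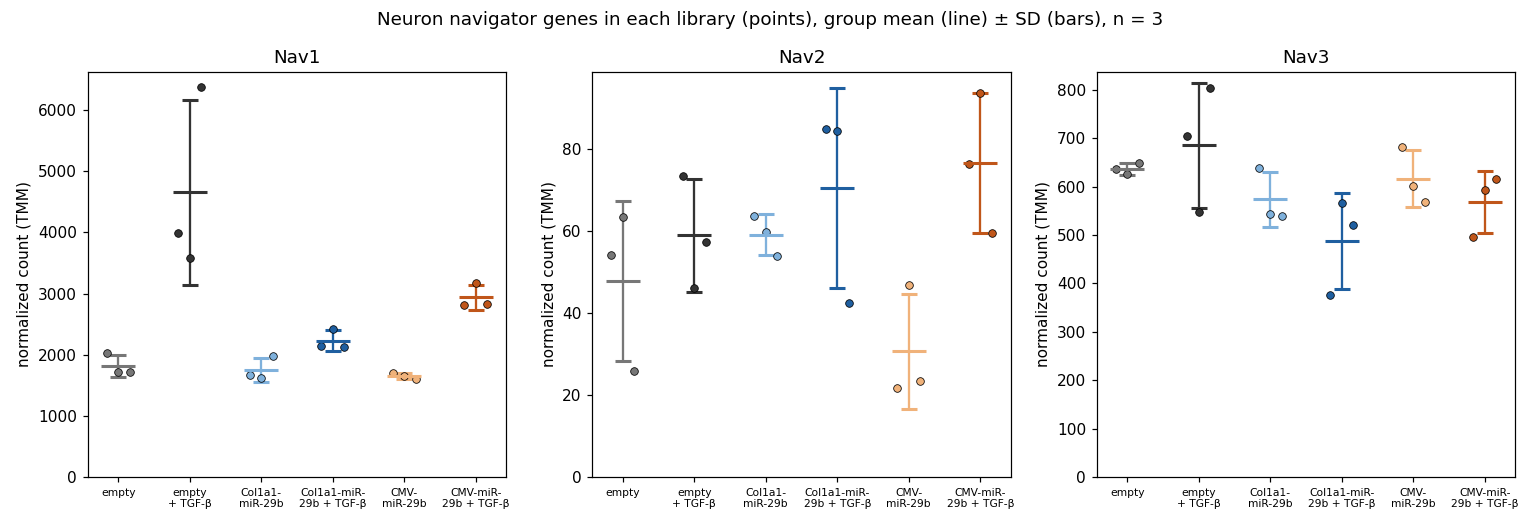
Normalized counts (TMM) of Nav1, Nav2 and Nav3 in each of the 18 libraries (points) by group, with the group mean (line) and SD (bars, n = 3). For Nav1 the 3 treated libraries stand above the untreated ones with each plasmid, from 3577.1 to 6381.7 with the empty vector, from 2805 to 3163.8 with CMV-miR-29b and from 2127.3 to 2421.5 with Col1a1-miR-29b. Nav3 groups overlap between treated and untreated cells with each plasmid.

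The difference between Col1a1-miR-29b and empty vector cells under TGF-β is the one by which Nav1 was selected. There Nav1 had a mean normalized count of 2231 against 4652, a level of 0.480-fold and a log2 difference of −1.06 (SE 0.16). All 3 Col1a1-miR-29b libraries, at 2127.3 to 2421.5, were below all 3 empty vector libraries, at 3577.1 to 6381.7, and 15.2% of all genes tested showed the same order. Without TGF-β the Nav1 groups overlapped, with means of 1752 and 1815 and a log2 difference of −0.05 (SE 0.16). Of all genes tested 12.9% passed the threshold with TGF-β and 6.27% without it. Nav1 is a long gene, with 17303 exon bases over all its transcripts. When each library's dependence on transcript length and GC content was taken out by offsets, the log2 difference with TGF-β was −0.78, and it was −0.69 when a replicate block, the replicate letter as a term of the model, was added to these offsets. Without the highest treated empty vector library it was −0.76.

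Nav3 was lower than in empty vector cells by less, and Nav2 was not lower. Under TGF-β the mean normalized count of Nav3 was 487.9 ± 100.1 (SD, n = 3) with Col1a1-miR-29b and 685.5 ± 129.8 (SD, n = 3) with the empty vector, a log2 difference of −0.49 (SE 0.16), with overlapping libraries. With the length and GC offsets it was −0.27. Without TGF-β it was −0.15 (SE 0.16). Nav2 had a mean of 70.5 ± 24.3 against 58.9 ± 13.7 (SD, n = 3) under TGF-β, a log2 difference of 0.26 (SE 0.37), and of 59.0 ± 4.91 against 47.7 ± 19.6 without it, a log2 difference of 0.31 (SE 0.37). The response to TGF-β, as the difference of log2 fold changes between Col1a1-miR-29b and empty vector cells, was −1.01 (SE 0.23) for Nav1, −0.05 (0.53) for Nav2 and −0.34 (0.22) for Nav3. These values share libraries with those just given.

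With CMV-miR-29b, which gave by far the higher Mir29b-1 counts, no navigator difference from empty vector cells that was tested passed the threshold. Under TGF-β all 3 CMV-miR-29b libraries of Nav1, at 2805 to 3163.8, were below the 3 of the empty vector, at 3577.1 to 6381.7, an order seen in 8.01% of all genes tested. The mean was 2935 against 4652, a level of 0.631-fold and a log2 fold change of −0.66 (SE 0.16). No test is given, since the treated empty vector libraries are also those of the difference by which Nav1 was chosen. Without treated empty vector replicate e the log2 fold change was −0.37. Of the 6 groups, treated empty vector cells had the widest Nav1 spread.

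Without TGF-β the CMV-miR-29b libraries of Nav1, at 1608.7 to 1700, also lay below those of the empty vector, at 1709.5 to 2020.6, an order seen in 5.15% of all genes tested. The log2 fold change was −0.13 (SE 0.16, edgeR adjusted p = 0.992). Averaged over treatments the log2 difference was −0.40 (SE 0.11), as a description.

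Nav2 and Nav3 overlapped between CMV-miR-29b and empty vector cells in both treatments. For Nav2 the log2 fold change was −0.64 (SE 0.38, edgeR adjusted p = 0.935) without and 0.38 (SE 0.37, adjusted p = 0.769) with TGF-β. For Nav3 it was −0.05 (SE 0.16, edgeR adjusted p = 1) and −0.27 (SE 0.16, adjusted p = 0.535). The exact permutation test over both treatments gave p = 0.715 for Nav2 and p = 0.185 for Nav3. With edgeR 0 of the 3 navigators passed without TGF-β, where 0.00473% of all genes tested did. Of Nav2 and Nav3, 0 passed with TGF-β, where 0.00945% of all genes did, and 0 for the mean over treatments, where 0.0898% did. In these tests 0 had an unadjusted p under 0.05, and DESeq2 called 0.

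The response to TGF-β was then set against that of empty vector cells. For Nav1, as a description, the difference of the log2 fold changes, CMV-miR-29b minus empty vector, was −0.53 (SE 0.23). It ran from −0.68 to −0.23 when each library was left out in turn, with −0.23 without treated empty vector replicate e. For Nav2 the difference in response was 1.01 (SE 0.53, edgeR adjusted p = 0.929) and for Nav3 −0.22 (SE 0.22, adjusted p = 0.955). By edgeR 0 genes of all tested passed here, 0% of them, with 1129 at an unadjusted p under 0.05, Nav2 and Nav3 not among them. DESeq2 called 19 genes, neither of these 2 included.

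The 2 miR-29b plasmids were also set against each other. Nav2 without TGF-β was lower with CMV-miR-29b, at 21.8 to 46.7 against 53.9 to 63.6 normalized counts with Col1a1-miR-29b. The libraries did not overlap, an order seen in 11.1% of all genes tested, but the log2 fold change of −0.95 (SE 0.38) did not pass the threshold (edgeR adjusted p = 0.226). With TGF-β the Nav2 libraries overlapped, with a log2 fold change of 0.12 (SE 0.37, edgeR adjusted p = 0.94). For Nav3 it was 0.10 (SE 0.16, edgeR adjusted p = 0.832) without and 0.22 (SE 0.16, adjusted p = 0.569) with TGF-β. Of Nav2 and Nav3, 0 passed, where 1.81% of all genes tested did without and 1.93% with TGF-β. Nav2 without TGF-β had an unadjusted p under 0.05, as did 16.4% of all genes tested, and DESeq2 called neither gene. For Nav1, as a description, CMV-miR-29b stood above Col1a1-miR-29b with TGF-β by a log2 difference of 0.40 (SE 0.16), without overlap, an order seen in 11.6% of all genes tested, and below it without TGF-β by −0.08 (SE 0.16), with overlap.

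**Figure D3:**
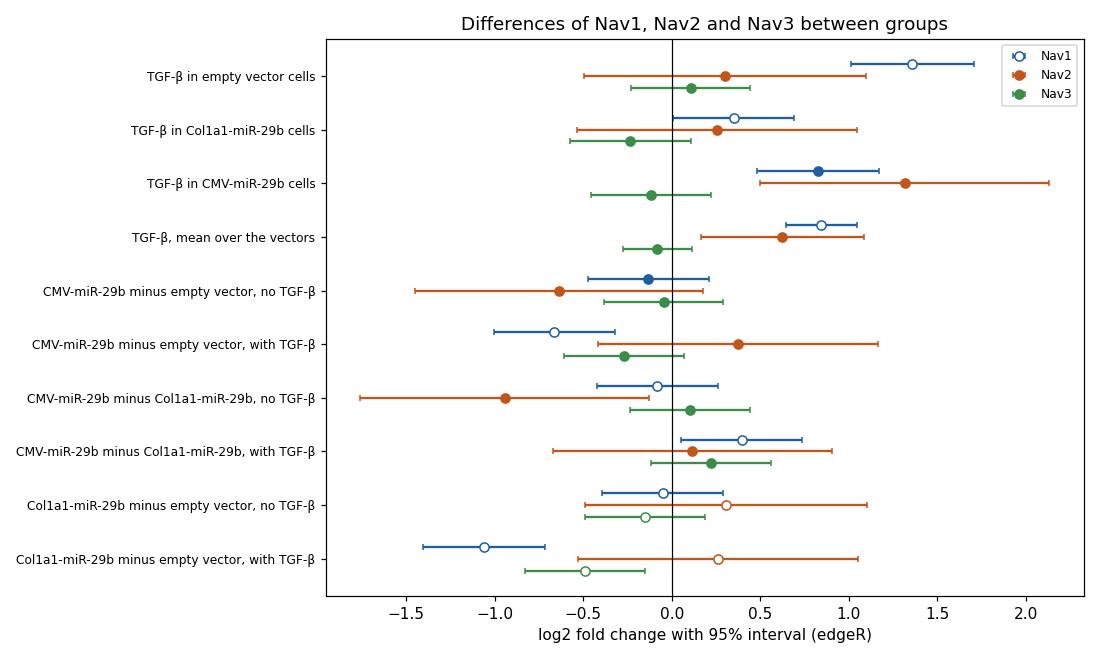
Log2 fold changes of Nav1, Nav2 and Nav3 in each comparison, with 95% intervals from edgeR. Filled points were tested and open points are descriptions, because they bear on the difference by which Nav1 was chosen. The intervals of Nav2 are the widest, and Nav1 lies to the right of 0 in each TGF-β comparison, from 0.35 to 1.36.

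Across the 6 groups, the order of the Nav1 means was empty vector with TGF-β (4652), CMV-miR-29b with TGF-β (2935), Col1a1-miR-29b with TGF-β (2231), then the untreated cells of empty vector (1815), Col1a1-miR-29b (1752) and CMV-miR-29b (1654). Each treated group was separated from the next by a gap between libraries, while neighbouring untreated groups overlapped. For Nav2 the order ran from CMV-miR-29b with TGF-β (76.4) to CMV-miR-29b without it (30.6), and each group overlapped its neighbour. For Nav3 it ran from empty vector (685.5) to Col1a1-miR-29b (487.9), both with TGF-β, again with overlap between all neighbours.

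The genes whose log2 levels followed Nav1 most closely over the 18 libraries were Adamts7, a secreted metalloproteinase, Pdgfa, a platelet-derived growth factor ligand, and Ankrd44, an ankyrin repeat protein. Their Pearson correlations with Nav1 were 0.947, 0.941 and 0.933, the highest among 13911 genes with a mean of at least 1 CPM. Adamts7 had mean normalized counts of 447.1 and 948.5 in untreated and treated empty vector cells, 395.8 and 549.6 with Col1a1-miR-29b, and 390.7 and 723.5 with CMV-miR-29b. It thus showed the same order of the 3 treated groups as Nav1. The likeness includes the differences by which Nav1 was chosen.

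For Nav3 the closest genes were Gm36936, a predicted gene, Ptch1, the Hedgehog receptor, and Tln2, a talin that links integrins to actin, with correlations of 0.88, 0.86 and 0.859. Tln2 had mean normalized counts of 3853.3, 2558.3 and 3395.6 in treated empty vector, Col1a1-miR-29b and CMV-miR-29b cells. For Nav2 they were Mrgpre, an orphan receptor, Gm8508, a predicted gene, and Smad7, the inhibitory Smad, with lower correlations of 0.765, 0.744 and 0.74. All libraries share the same 6 groups, so these correlations hold differences between groups as well as within them.

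Genes of other proteins at microtubule tips were counted with TGF-β in the same way. Of 24 plus-end tracking proteins, all tested, 2 rose and 1 fell with TGF-β in empty vector cells, beside 3.88% and 2.01% of all genes. Mapre2, an end-binding protein, fell by 0.39 on the log2 scale (SE 0.051, edgeR adjusted p = 0.000133). Clip2, a linker protein, rose by 0.31 (edgeR adjusted p = 0.0138), and Gtse1, a protein of mitotic microtubules, by 0.25 (adjusted p = 0.0189). There 1 rose when the replicate block or scaling by total counts was used. In CMV-miR-29b cells 1 rose and 1 fell, Gtse1 and Mapre2 (backgrounds 3.08% and 1.87%), and in Col1a1-miR-29b cells 0 rose and 1 fell, Mapre2 (3% and 1.32%). The median log2 fold change of the list was −0.0046, −0.0066 and 0.08 in empty vector, Col1a1-miR-29b and CMV-miR-29b cells, against 0.0023, −0.0056 and −0.0025 over all genes tested.

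Trio, Rac and the WAVE complex carry the signal from navigators to actin. Of 22 such genes 21 were tested, and 1 rose with TGF-β in empty vector cells, Actr2, a subunit of the actin-nucleating Arp complex, by a log2 fold change of 0.17 (edgeR adjusted p = 0.0261), beside 3.88% of all genes. Under the replicate block, and under scaling by total counts, 0 rose. With the other plasmids 0 passed. Under TGF-β, Col1a1-miR-29b cells had 1 member higher and 5 lower than empty vector cells, beside 5.31% and 7.63% of all genes. Trio itself differed by a log2 fold change of −0.44 (edgeR adjusted p = 0.0198) and its relative Kalrn by −0.53 (adjusted p = 0.0137). With the replicate block 0 of this list passed there. Among the plus-end proteins 0 were higher and 6 lower in this comparison, among them Ckap5, a microtubule polymerase, at −0.42 (edgeR adjusted p = 0.000233). Under the replicate block 3 were lower. None of the gene lists was counted under the offsets for length and GC content, which moved Nav1 and Nav3 in this comparison. The median log2 fold change was −0.10 for the Trio list and −0.07 for the plus-end list, against 0.019 over all genes tested.

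Retinoic acid signaling, by which Nav2 was first known, was measured through 20 genes, of which 16 were tested. With TGF-β 3 rose in empty vector cells, 3 with the Col1a1-miR-29b plasmid and 2 with CMV-miR-29b, beside 3.88%, 3% and 3.08% of all genes. By edgeR 0 fell with each plasmid, beside 2.01%, 1.32% and 1.87% of all genes, while DESeq2 called 1 lower in empty vector cells. Under the replicate block 1 rose with each of the 2 miR-29b plasmids. Scaling by total counts left 1 higher with CMV-miR-29b. Rara, a retinoic acid receptor, rose with each plasmid, by log2 fold changes of 0.34 (edgeR adjusted p = 0.00183), 0.46 (adjusted p = 0.000129) and 0.39 (adjusted p = 0.000556) in empty vector, Col1a1-miR-29b and CMV-miR-29b cells. Rdh10, which makes retinal for retinoic acid synthesis, rose by 0.53 (edgeR adjusted p = 0.00576), 0.46 (adjusted p = 0.0192) and 0.40 (adjusted p = 0.0388). Cyp26b1, which degrades retinoic acid, rose by 0.83 (edgeR adjusted p = 0.0386) in empty vector and by 1.12 (adjusted p = 0.00739) in Col1a1-miR-29b cells. The list's median change on the log2 scale was 0.18, 0.15 and 0.37, against 0.0023, −0.0056 and −0.0025 over all genes tested.

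Axon guidance and neurite genes moved in both directions with TGF-β. Of 25 genes 20 were tested, of which 6 rose and 3 fell in empty vector cells, 2 rose and 2 fell in Col1a1-miR-29b cells, and 2 rose and 4 fell in CMV-miR-29b cells. The shares of all genes that rose and fell were 3.88% and 2.01%, 3% and 1.32%, and 3.08% and 1.87%. Under the replicate block 3 rose in empty vector cells and 1 fell in Col1a1-miR-29b cells, where DESeq2 called 5 higher and 4 lower. Sema3a and Sema3c, secreted guidance cues, fell by 1.24 (edgeR adjusted p = 4.56e-05) and 1.02 (adjusted p = 0.0017) on the log2 scale in empty vector cells. Efnb1, an ephrin ligand, rose by 0.58 (edgeR adjusted p = 0.000228) and Unc5b, a netrin receptor, by 0.53 (adjusted p = 0.00631). The list's median log2 fold change in empty vector cells was 0.0016, against 0.0023 over all genes tested. Between Col1a1-miR-29b and empty vector cells under TGF-β, 2 members were higher and 6 lower, beside 5.31% and 7.63% of all genes. With the replicate block 3 were lower there. The median log2 fold change of that comparison was −0.34, against 0.019 over all genes tested.

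Established targets of miR-29, mostly collagens and other matrix genes, were measured beside the navigators. Of 42 genes 40 were tested. With TGF-β 17 rose and 2 fell in empty vector cells, 17 rose and 2 fell in Col1a1-miR-29b cells, and 18 rose and 2 fell in CMV-miR-29b cells, beside 3.88% and 2.01%, 3% and 1.32%, and 3.08% and 1.87% of all genes. With the replicate block 11 rose and 1 fell in Col1a1-miR-29b cells. Averaged over treatments, 9 were lower and 0 higher with CMV-miR-29b than with the empty vector by edgeR, where 0.0473% of all genes were lower. Col3a1, a fibrillar collagen, differed by −0.54 (edgeR adjusted p = 0.0172) and Tet3, a DNA demethylase, by −0.23 (adjusted p = 0.0163). With the replicate block 0 were lower. The list's median log2 fold change there was −0.16. Within each treatment alone 0 of the 40 passed with edgeR for CMV-miR-29b. Between Col1a1-miR-29b and empty vector cells under TGF-β, 1 was higher and 18 lower, beside 5.31% and 7.63% of all genes. The median log2 fold change was −0.25, against 0.019 over all genes tested. Without TGF-β 1 was higher and 10 lower with Col1a1-miR-29b, where 6.27% of all genes passed in either direction. Several of these genes were discussed by the study on these same libraries, so their direction is not independent evidence.

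**Figure D4:**
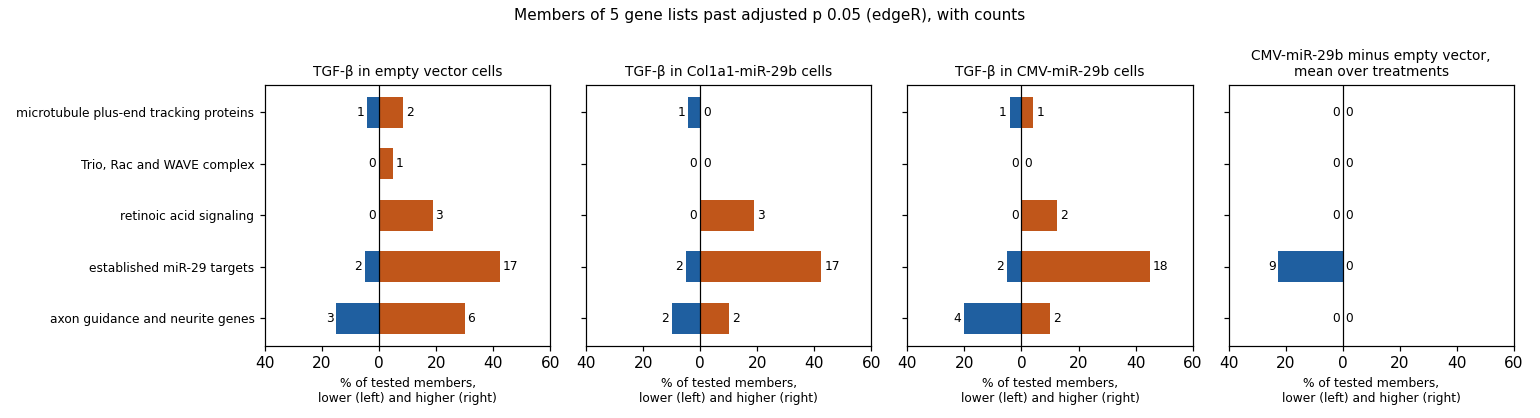
Share of tested members of 5 gene lists that passed an adjusted p of 0.05 (edgeR), lower to the left and higher to the right, with their counts, in the TGF-β comparison of each plasmid and in CMV-miR-29b against the empty vector. The established miR-29 targets hold 17, 17 and 18 higher members with TGF-β, and 9 lower members with CMV-miR-29b.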

How the data were processed

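RNA was measured in 18 libraries of poly(A) RNA. Per the labels and the study's methods, reads were trimmed with cutadapt, checked with FastQC, mapped with HISAT2 and passed to StringTie. In the deposited table the authors give whole-number counts per gene without normalization, and FPKM values that they attribute to DESeq2. The counting step is not given in the sources used here. The labels name mm9 as the build, but 52506 of 55450 genes have the coordinates of GENCODE on GRCm38, which was used. Nav1 is not among them. Its deposited interval ends at base 135585705 and the annotated one at 135607295, with the same start at 135434580. The exon bases, overlaps and 3′ UTR given for Nav1 are those of the annotation. Among counts of 1 to 40, 33.8% to 36.7% per library were multiples of 4, where chance gives 25%, so counts carry error beyond single reads. Between libraries of a group the chi-square was 37 to 58.5 on average per gene, against 1 for pure counting error.

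The third library of each Col1a1-miR-29b group could be mapped to its group only. Its column name ends in f, a letter that no sample title has, and it is called unlettered below. Its counts were used, and their 2 FPKM columns were left out.

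The count test was edgeR 4.0.16 (R 4.3.3), with filterByExpr, TMM, 1 mean per group over 18 libraries, quasi-likelihood F tests, and Benjamini-Hochberg adjustment over 21161 genes, with a threshold of 0.05. Standard errors came from the F statistic. The fit was tested on simulated data. No test was run for a navigator between Col1a1-miR-29b and empty vector cells, nor for Nav1 between the 2 miR-29b plasmids or in a comparison that holds treated libraries of those plasmids. Permutation tests were two-sided on log2 CPM (prior count 2). Alternatives used DESeq2 1.42.0 and limma 3.58.1 on log2(FPKM + 1) and log2(FPKM + 0.1). Members and gene lists were chosen with earlier results of these data known. Named besides the 3 navigators were Mir29b-1, the 3 most correlated genes of each, up to 4 list members with the lowest adjusted p in a comparison, and overlapping genes and markers.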

Additional observations from a re-analysis of the deposited data

How the results depend on the processing

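The rise of Nav1 with TGF-β in CMV-miR-29b cells passed the threshold under all 14 other settings, at 0.50 to 0.83 on the log2 scale, and with each library left out, at 0.76 to 0.86. The untested Nav1 values over these settings were 0.85 to 1.36 in empty vector cells, 0.26 to 0.47 in Col1a1-miR-29b cells and 0.54 to 0.88 on average. The low ends, and the 0.50 in CMV-miR-29b cells, came from limma on log2(FPKM + 1). There the added 1 makes differences at low FPKM smaller than log2 fold changes. The cause of other changes was not tested.

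With DESeq2 Nav2 newly passed with TGF-β in CMV-miR-29b cells (1.32) and averaged over plasmids (0.62). In CMV-miR-29b cells it also passed with genes of at least 10 counts in every library (1.31). The labels do not say whether the letters in the sample titles pair the libraries. Deviations from the group means had a mean correlation of 0.0155 over 36 pairs with the same letter. Over 70 pairs with different letters it was −0.0081. These correlations cannot show whether libraries with the same letter came from the same experiment. With the letter as a replicate block, which leaves out both unlettered libraries, Nav2 passed for the mean over plasmids (0.72), and no other navigator call changed.

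Offsets for length and GC content gave −0.78 for Nav1 and −0.27 for Nav3 in Col1a1-miR-29b against empty vector cells with TGF-β. For CMV-miR-29b against Col1a1-miR-29b, Nav3 without TGF-β turned to −0.019 and Nav2 with it to −0.0023. With the replicate block added to the offsets these 4 values were −0.69, −0.28, −0.11 and −0.096. That fit also gave 0.11 for Nav3 in Col1a1-miR-29b and 0.0023 in CMV-miR-29b against empty vector cells without TGF-β, and 0.17 for Nav1 in CMV-miR-29b against Col1a1-miR-29b cells with it.

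Limma on log2(FPKM + 1) gave 0.85 and 0.54 for Nav1 with TGF-β in empty vector cells and on average, −0.43 for CMV-miR-29b against the empty vector with TGF-β, and −0.66 for Nav1 and −0.16 for Nav3 in Col1a1-miR-29b against empty vector cells with TGF-β, and −0.59 and −0.13 for the difference in response. Nav2 turned to 0.0003 for CMV-miR-29b against the empty vector over treatments and to −0.0049 against Col1a1-miR-29b with TGF-β. Its median FPKM of 0.0214 is small beside the added 1, so its differences on this scale are small by construction. On log2(FPKM + 0.1) the latter was −0.040, and Nav1's difference in response with Col1a1-miR-29b was −0.80. Leaving out both unlettered libraries, chosen after seeing the data, turned Nav2 in CMV-miR-29b against Col1a1-miR-29b cells with TGF-β to −0.14.

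Leaving out each library in turn moved Nav2 with TGF-β from −0.0063 to 0.55 in empty vector cells, from 1.12 to 1.75 in CMV-miR-29b cells and from 0.52 to 0.76 on average. Nav2 passed in CMV-miR-29b cells without CMV-miR-29b replicate d or empty vector replicate e, and on average without CMV-miR-29b replicate d or the treated unlettered library. Nav3 moved from −0.038 to 0.23 with TGF-β in empty vector cells and from −0.14 to 0.0083 for CMV-miR-29b against the empty vector without TGF-β. Nav2 for CMV-miR-29b against Col1a1-miR-29b with TGF-β moved from −0.14 to 0.28. For Nav1 the range was 1.05 to 1.51 with TGF-β in empty vector cells, and against treated empty vector cells it was −0.83 to −0.37 with CMV-miR-29b and −1.22 to −0.76 with Col1a1-miR-29b. The difference in Nav1 response ran from −1.16 to −0.70 with Col1a1-miR-29b and from −0.68 to −0.23 with CMV-miR-29b. The ends of these Nav1 ranges come from leaving out treated empty vector replicate d or e.

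Over all genes, DESeq2 called 43 and 264 genes for CMV-miR-29b against the empty vector without and with TGF-β and 320 on average, against 1, 2 and 19 with edgeR. The replicate block called 394 in place of 914 for TGF-β in Col1a1-miR-29b cells, and 161 and 1152 in place of 1327 and 2738 for Col1a1-miR-29b against the empty vector. Of the miR-29 targets, 11 were lower by DESeq2 with CMV-miR-29b and TGF-β, against 0 by edgeR. Nav2, at 23 to 84 counts, had standard errors of 0.37 to 0.38 within a plasmid, and its 95% interval for TGF-β in empty vector cells was −0.50 to 1.10.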
